A study of Mus musculus with 32 samples.

Results

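The livers described here came from mice on a methionine- and choline-deficient diet that were sampled before partial hepatectomy (PH), with and without Fc-GLP-1. They were 8 of the 32 liver samples of the series, chosen by their labels alone, and the measured values played no part in the choice. The 4 MCD samples were from mice fed the deficient diet for 3 weeks with saline as vehicle. The 4 M+Fc-GLP-1 samples were from mice on the same 3 weeks of diet that were also given Fc-GLP-1 during the final 2 weeks, from the end of week 1 of the diet. By the study's methods all were male C57Bl/6 mice, 8 weeks old when the diet began, and Fc-GLP-1 was injected under the skin at 10 nmol per kg every 2 days. The labels disagree on the agent: the source names give Fc-GLP-1, whereas the growth protocol describes an agonist of both the GLP-1 and the glucagon receptor at 4.4 mg per kg per day. The name Fc-GLP-1 is used here as the source names give it, and which description holds could not be settled. The matched groups on standard chow, C (saline) and C+Fc-GLP-1, also 4 mice each, serve as a second view of the same treatment. The remaining 16 samples were taken 2 weeks after PH. They enter only the filter on dim probes, the choice of each gene's probe and the shared estimate of the spread.

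Fc-GLP-1 is glucagon-like peptide 1 joined to an antibody Fc part, which lengthens its life in the blood. GLP-1 is an incretin, a gut hormone that raises insulin release after a meal and reduces food intake, and its receptor is scarce in hepatocytes. The deficient diet withholds the methyl and choline groups needed to build phosphatidylcholine and export fat as lipoprotein, so that triglyceride builds up in hepatocytes and the liver becomes inflamed. Resident macrophages (Kupffer cells), recruited monocytes and neutrophils are the usual inflammatory cells of that liver, and the nuclear receptor PPARA governs the genes by which hepatocytes oxidise fatty acids.

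Total RNA from each liver was labelled with 1 dye and hybridised to 1 array. A log2 level below is the log2 of a probe's processed signal minus that array's 75th percentile, so that 0 is the 75th percentile and each unit is a factor of 2. Levels are compared between arrays for the same probe and never between genes. Log2 differences, with their standard errors (SE), are M+Fc-GLP-1 minus MCD from a limma fit over all 32 arrays and 21228 genes, and p-values are adjusted over those genes (Benjamini-Hochberg), with a gene called changed at an adjusted p under 0.05. By the study's legends the arrays of a group are of separate mice, so the spread is that between mice.

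The MCD and M+Fc-GLP-1 arrays lay on different slides, the first with the C arrays and the second with the C+Fc-GLP-1 arrays, so treatment and slide cannot be told apart in either diet. The interaction below, the difference on the deficient diet minus that on chow, is free of any slide difference that is the same for both diets. Between 52.5% and 57.9% of probes were well above background on the 4 MCD arrays, and between 36.3% and 51.4% on the M+Fc-GLP-1 arrays (difference -9.65 percentage points, exact permutation test, two-sided p = 0.0286, the smallest that 4 against 4 allows). The 75th percentile of the signal was 442 to 564 on the MCD arrays and 268 to 338 on the M+Fc-GLP-1 arrays. Correlations between replicates over the tested genes without a missing value were 0.98 to 0.985 among MCD and 0.963 to 0.974 among M+Fc-GLP-1 arrays. The lowest signal that still counted as well above background lay between -5.17 and -4.81 on the MCD arrays and between -4.74 and -3.11 on the treated ones, and the part of this in differences of dim genes was not tested. Hepatocyte markers were present on all 16 arrays before PH: Alb, Ttr, Apoa1, Serpina1a and Fabp1 were well above background on every MCD and M+Fc-GLP-1 array, and none of the 5 was called.

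Fc-GLP-1 on the deficient diet went with lower levels of 8 of 15 Kupffer cell, 7 of 19 neutrophil and 4 of 8 MHC class II genes and of some plasma cell genes. Higher levels were called for 9 of 54 genes of fatty acid oxidation and for 3 of 6 acyl-CoA thioesterases of a gene cluster. Of 21228 genes tested, 1529 were called, which is 7.2% of all, with 938 higher (4.42%) and 591 lower (2.78%). At an unadjusted p under 0.05, 3210 of the 21228 genes were higher and 1892 lower. Counts of list members at that cutoff below stand against these. Values of the 4 treated and 4 untreated livers did not overlap for 3467 genes (16.3%). The median difference of all genes was 0.10, and each list's median below stands against that value. The split of calls depended on how the arrays were aligned: 61.3% of the called genes were higher when arrays were aligned at the 75th percentile and 16.3% when aligned at the median, where 251 were higher, 1289 were lower and the median of all genes was -0.22. List medians were therefore also taken relative to the median of all genes under 5 other alignments, and 46 of 63 lists lay on the same side of it in each. The same treatment on chow gave 428 called genes, 194 higher and 234 lower (2.02%, 0.914% and 1.1% of all), and the interaction was called for 1297 genes (6.11%). In the authors' normalized values the last 2 counts were 2135 and 342, and the interaction calls of single genes below are those of the 75th percentile alignment. The plot of level against difference shows that large differences in both directions occurred at every level of signal, with the median difference 0.20 among the dimmest 5307 genes and 0.12 among the brightest 5307.

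**Figure D1:**
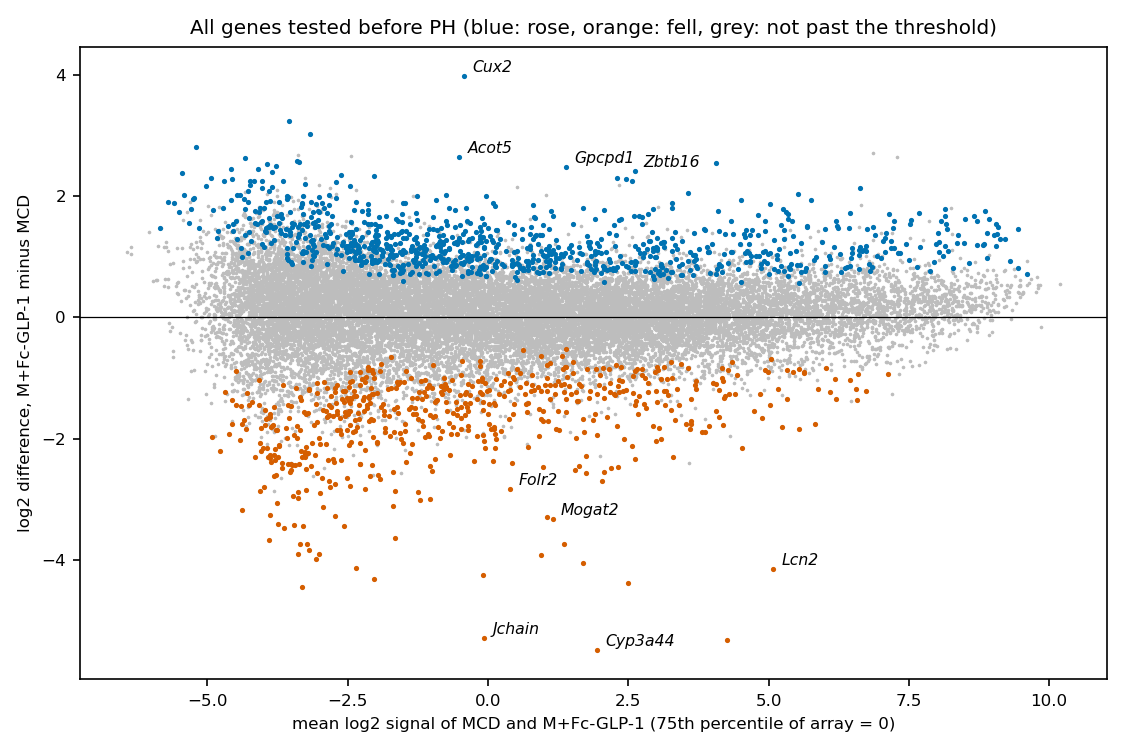
Mean log2 level over the MCD and M+Fc-GLP-1 arrays (horizontal axis, relative to each array's 75th percentile) against the log2 difference M+Fc-GLP-1 minus MCD (vertical axis) for all 21228 genes tested. Called genes are coloured, and Cux2 at 3.99 and Cyp3a44 at -5.50 are the furthest from 0 of the labelled genes.

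Kupffer cells are the resident macrophages of the liver sinusoid. Of 15 tested members of their list, 8 fell and 0 rose, against 2.78% of all genes lower, and the list's median difference was -1.62. Folr2, a folate receptor of resident macrophages, was at 2.61, 0.61, 2.04 and 2.0 in MCD replicates 1 to 4 and at -0.89, -0.20, -1.61 and -1.37 in M+Fc-GLP-1 replicates 1 to 4. Every treated liver lay below every untreated one, although MCD replicate 2 was itself low, and the fall was 2.83 on the log2 scale (SE 0.44, adjusted p = 0.00037). Clec4f, a lectin found in Kupffer cells, was at 5.41, 4.27, 4.88 and 4.76 in MCD and at 2.54, 3.55, 2.36 and 3.71 in M+Fc-GLP-1, again without overlap (difference -1.79, SE 0.35, adjusted p = 0.00377). C1qb, a chain of the complement starter C1q that macrophages secrete, was at 3.64, 2.25, 2.88 and 2.92 and 1.06, 1.54, 0.33 and 0.97, with no overlap (difference -1.95, SE 0.43, adjusted p = 0.00784). Cd5l, a secreted survival factor of macrophages, fell by 1.84 (adjusted p = 0.00782) without overlap. Csf1r, the receptor for macrophage colony-stimulating factor, and Vsig4, a complement receptor, fell by 1.65 and 1.71 (adjusted p = 0.0125 and 0.0138), but in both the highest treated value passed the lowest MCD value, that of replicate 2. The 2 other Csf1r probes were at -2.84 and -0.016. Timd4 and Marco, further defining markers, were at differences of -1.53 and -0.88 and were not called (adjusted p = 0.0633 and 0.339).

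These RNA levels come from whole liver, where fewer cells of a type and less RNA per cell cannot be told apart. On chow the Kupffer list had a median difference of 0.36 under the same treatment, and Folr2, Clec4f, C1qb and Cd5l were at 0.25, 0.60, 0.37 and 0.39, none of them called there. The difference between the diets was called for each of the 4 (interaction adjusted p = 0.00609, 0.00787, 0.0254 and 0.0226). Side by side with the untreated chow livers, Folr2 averaged 0.86 in C, 1.81 in MCD and -1.02 in M+Fc-GLP-1, and Cd5l averaged 4.64, 6.46 and 4.62. Relative to the median of all genes the Kupffer list lay between -1.73 and -1.40 under the 5 other alignments of the arrays. The count of 8 became 4 without MCD replicate 1 and 5 without M+Fc-GLP-1 replicate 3, and Folr2, Clec4f and Cd5l kept their calls in every alternative run. The panels of single genes by array show these values next to genes of the other groups.

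**Figure D2:**
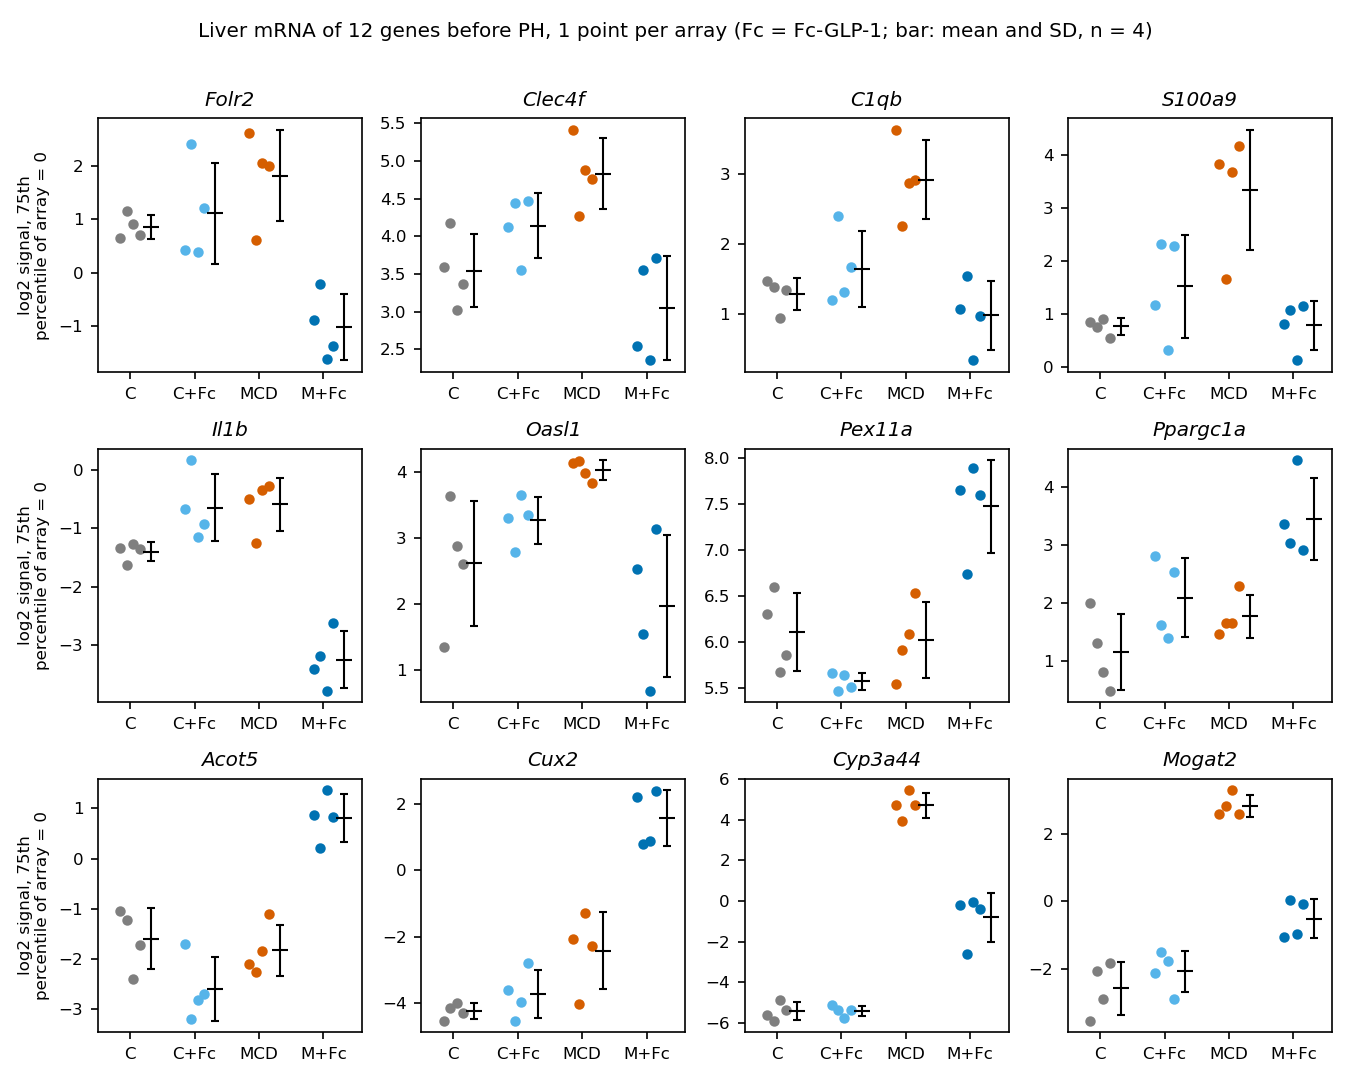
Log2 level (relative to each array's 75th percentile) of 12 genes on each array of the 4 groups sampled before PH (chow or MCD diet, each without and with Fc-GLP-1), with points for the 4 mice of a group and the mean ± SD. Folr2, Clec4f, C1qb, S100a9, Il1b, Oasl1, Cyp3a44 and Mogat2 lie lower in the treated than in the untreated livers on the deficient diet, and Pex11a, Ppargc1a, Acot5 and Cux2 lie higher; the chow points of Cyp3a44 are at background.

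Genes of recruited and lipid-associated macrophages moved the same way: 7 of 24 fell, 0 rose, and the median difference was -1.22. Lyz1, a lysozyme of myeloid cells, was at 3.15, 1.89, 2.80 and 3.58 in MCD and 0.05, 0.57, -0.06 and 1.04 in M+Fc-GLP-1, so that the groups did not overlap (difference -2.45, SE 0.46, adjusted p = 0.00246). Tyrobp, the adaptor through which TREM2 signals, was at 4.45, 3.32, 4.38 and 4.21 and 1.42, 2.79, 1.73 and 2.42 (difference -2.0, adjusted p = 0.0111). The scavenger receptor Msr1 fell by 2.01 (adjusted p = 0.0113) and the membrane protein Ms4a7 by 2.54 (adjusted p = 0.0163), with Msr1 well above background on 3 and Ms4a7 on 2 of the treated arrays and a second Msr1 probe at -0.84. Mmp12, the macrophage elastase, was well above background on 4 MCD arrays and on 0 treated arrays and was at least 3.46-fold lower (adjusted p = 0.0407). Such a bound sets the mean of the brighter group against the mean of the dimmer group. Values of the dimmer group under an array's lowest measurable signal were first raised to that signal. Trem2 and Gpnmb, the usual markers of lipid-associated macrophages, did not overlap between the groups but missed the threshold, at differences of -1.63 and -1.99 (adjusted p = 0.181 and 0.257). Values of 13 of the 24 members lay lower without overlap, against 6.1% of all genes. On chow the list's median was 0.91, and Tyrobp, Lyz1 and Msr1 were at 1.42, 0.78 and 1.24 (interaction adjusted p = 0.00447, 0.00614 and 0.00692). The count of 7 lower became 2 without M+Fc-GLP-1 replicate 3, 3 without MCD replicate 4 and 4 without MCD replicate 1 or M+Fc-GLP-1 replicate 1 or 4, and the list's median relative to all genes lay between -1.40 and -1.08 under the other alignments.

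Chemokines draw leukocytes into tissue, and 5 of 33 tested chemokine and receptor genes fell, with a median of -0.93 and 30 of 33 differences below 0. Ccl24, an eosinophil attractant made by macrophages, was at 1.05, -0.84, 0.69 and 0.87 in MCD and at -1.37, -1.11, -1.70 and -1.45 in M+Fc-GLP-1 (difference -1.85, SE 0.53, adjusted p = 0.0333). The groups did not overlap, although MCD replicate 2 lay close above the treated livers. Ccl5, which attracts T cells and monocytes, fell by 1.22 (adjusted p = 0.0351), and Ccl4, a chemokine of activated macrophages, was at least 6.04-fold lower, with 0 of 4 treated arrays above background (adjusted p = 0.0375). Ccr7, which guides dendritic and T cells to lymph nodes, fell by 1.34 (adjusted p = 0.0253). Of the 33 genes, 3 passed the filter on dim probes through the MCD arrays alone, a route that favours genes brighter there. The count of 5 became 1 without MCD replicate 1 or 4 or M+Fc-GLP-1 replicate 3 and 3 without MCD replicate 3 or M+Fc-GLP-1 replicate 1 or 4, and 2 to 6 under the other alignments of the arrays.

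Neutrophils are granulocytes whose cytosol is rich in the alarmins S100A8 and S100A9. In their list 7 of 19 genes fell and 1 rose, with a median of -1.71. S100a9 was at 3.83, 1.66, 3.68 and 4.18 in MCD and 0.80, 1.07, 0.12 and 1.14 in M+Fc-GLP-1, so that the lowest MCD liver, replicate 2, still lay above the highest treated one (difference -2.55, SE 0.61, adjusted p = 0.0123). S100a8 fell by 3.01 (adjusted p = 0.0083), measured well above background on 2 treated arrays. Lcn2, lipocalin 2, an iron-withholding protein of neutrophils that inflamed hepatocytes also make, was at 8.22, 5.55, 7.66 and 7.24 and 3.59, 3.16, 2.66 and 2.62 (difference -4.16, SE 0.86, adjusted p = 0.00529). Its MCD values were all above 5 and its treated values all below 4. The formyl peptide receptor Fpr1 and the NADPH oxidase subunit Ncf4 fell by 1.92 and 1.71 (adjusted p = 0.00823 and 0.00839). Ly6g, which defines neutrophils in flow cytometry, went the other way, at -1.22, -1.21, -0.70 and -0.16 in MCD and 0.02, 0.10, -0.13 and 0.50 in M+Fc-GLP-1 (difference 0.95, adjusted p = 0.0427), a call lost under 12 of 22 alternatives. Retnlg, another neutrophil marker, was at -0.97 and was not called (adjusted p = 0.357). On chow Lcn2, S100a8 and S100a9 were at 1.49, 1.42 and 0.76 with no call, and the interaction was called for all 3 (adjusted p = 0.00956, 0.00913 and 0.024). After a normexp background correction with quantile normalization, and in the authors' normalized values, 3 of the 19 genes were lower, although the median of the list stayed below that of all genes under every alignment tried.

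Interleukin 1 and tumour necrosis factor are the leading cytokines of innate inflammation. Il1b, which activated macrophages and neutrophils secrete, was at -0.49, -1.26, -0.33 and -0.27 in MCD and -3.41, -3.18, -3.79 and -2.62 in M+Fc-GLP-1, where 2 of 4 arrays measured it well above background, and the fall of 2.66 (SE 0.47, adjusted p = 0.00149) was kept in every alternative. Tnf was measured on 4 MCD arrays and 0 treated arrays, at least 2.13-fold lower, and was not called (adjusted p = 0.181). The TNF receptor Tnfrsf1a fell by 0.87 (adjusted p = 0.00962). In contrast Il1rap, Il6ra and Il1r1, receptor chains for interleukin 1 and interleukin 6 that hepatocytes carry, rose by 1.39, 1.28 and 1.27 (adjusted p = 0.0298, 0.0332 and 0.0497). The list therefore held 3 rises and 2 falls among 29 genes, with a median of -0.56. The 3 rises became 0 without MCD replicate 1 or 2 or M+Fc-GLP-1 replicate 1 or 3 and 1 without MCD replicate 3 or M+Fc-GLP-1 replicate 4, and 0 when arrays were aligned at the median. Among 15 Toll-like receptors and adaptors limma called 0, with 5 lower and 0 higher at an unadjusted p under 0.05 and a median of -0.60.

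Antigen presentation on MHC class II is the work of macrophages, dendritic cells and B cells. Of 8 class II genes tested, 4 fell and 0 rose, with a median of -1.31. H2-Aa, an alpha chain, was at 2.21, 1.37, 2.42 and 1.56 in MCD and 0.35, 0.51, -0.78 and -0.34 in M+Fc-GLP-1, so the groups did not overlap (difference -1.96, SE 0.47, adjusted p = 0.0127). H2-Eb1 and H2-Ab1, beta chains, and H2-DMb1, which helps to load peptide, fell by 1.64, 1.54 and 1.86 (adjusted p = 0.0125, 0.0379 and 0.0247). The 4 became 1 without MCD replicate 1 or M+Fc-GLP-1 replicate 3 and 2 without MCD replicate 4. Cd83, which marks mature dendritic cells, and Batf3, a factor for cross-presenting ones, fell by 2.38 and 1.55 (adjusted p = 0.00829 and 0.0285), while Flt3 was at -0.17 and was not called (adjusted p = 0.841).

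T cell markers were not called: Cd3d, Cd3e and Cd3g, chains of the T cell receptor complex, were at -0.37, 0.60 and -0.39, with adjusted p of 0.433, 0.159 and 0.566. Of 22 T and NK genes, 1 rose (the granzyme Gzmk, 1.10, adjusted p = 0.0493) and 2 fell (Ccl5 above and the lymphotactin gene Xcl1, at least 2.16-fold lower, adjusted p = 0.048, with 0 of 4 treated arrays above background). Prf1, the pore-forming perforin, was at 0.36 with no call (adjusted p = 0.445). The granzyme Gzmb and the cytokine Ifng were well above background on 0 treated arrays and were not called (adjusted p = 0.193 and 0.817). Among 36 interferon-stimulated genes 2 fell and 31 differences were below 0 (median -0.47). Oasl1, a sensor-like antiviral protein, was at 4.12, 4.16, 3.98 and 3.83 in MCD and 2.52, 1.55, 0.69 and 3.13 in M+Fc-GLP-1, without overlap (difference -2.05, SE 0.42, adjusted p = 0.00445), and Ifi27l2a fell by 1.52 (adjusted p = 0.0206). On chow Oasl1 was at 0.65 and Ifi27l2a at 0.81, and the interaction was called for both (adjusted p = 0.0101 and 0.0172).

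Plasma cells secrete antibody, and their genes held some of the largest falls. Jchain, which joins IgA and IgM units, was at 2.77, 1.52, 3.15 and 2.87 in MCD and -0.93, -3.14, -4.16 and -2.62 in M+Fc-GLP-1, where 2 of 4 arrays were well above background. The difference was -5.29 (SE 0.64, adjusted p = 2.39e-05), and on chow it was -1.44 (adjusted p = 0.226). Jchain averaged 0.50 in the untreated chow livers, between the untreated MCD mean of 2.58 and the treated mean of -2.71. Mzb1, which assists antibody folding, fell by 1.69 (adjusted p = 0.0163) and the lambda light chain gene Iglv1 by 4.25 (adjusted p = 0.000128). The variable segments Ighv1-77, Ighv1-61 and Igkv3-4 were at least 4.74-, 5.59- and 4.54-fold lower, with 0 of 4 treated arrays above background (adjusted p = 0.000204, 0.0066 and 0.00823). Probes for such segments are near-identical, so the exact segment is uncertain. Of the B cell markers, Ms4a1 and Cd79a were at 0.31 and 0.18 and were not called (adjusted p = 0.825 and 0.799). In the values above, 11 of 15 differences of the B and plasma cell list were below 0, with a median of -0.71. Under a normexp correction aligned at the 75th percentile the list's median was 0.07, where that of all genes was 0.27. Relative to the median of all genes the list lay between -0.81 and -0.20 under the 5 other alignments. Of these 15 genes, 3 passed the filter through the MCD arrays alone, a route that favours genes brighter there, and all 3 were plasma cell genes.

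Summed over fixed markers, with the signal expressed in units of each array's 75th percentile, Kupffer cell signal ranged from 92.1 to 256 in MCD and from 28.1 to 93.5 in M+Fc-GLP-1, so the groups touched at the edges. Neutrophil markers summed to 4.24 to 21.8 and 2.21 to 4.09, plasma cell markers to 3.2 to 9.48 and 0.229 to 0.78, and monocyte and recruited macrophage markers to 8.45 to 11.6 and 3.18 to 7.84. In MCD the neutrophil sum was mostly S100a9 (mean level 3.34, against -0.83 for Ly6g). The plasma cell sum there was mostly Jchain (2.58, against -1.20 for Mzb1). Hepatocyte markers summed to 2450 to 2930 and 2730 to 4130, and endothelial markers to 61.7 to 81.4 and 63.6 to 86.6. Stellate cell markers summed to 3.4 to 5.91 and 2.14 to 3.29. Dendritic cell markers, mostly Siglech, which was not called (adjusted p = 0.244), summed to 78.3 to 100 and 45.8 to 68.6. The neutrophil, plasma cell, monocyte, stellate cell and dendritic cell sums were lower in every treated liver than in any untreated one. Of the monocyte markers Ccr2, Itgam, Trem2 and Gpnmb none was called, and Itgam was at 0.22 (adjusted p = 0.786). Their sum in MCD was mostly Trem2 (2.62, against 1.41 for Itgam). None of the stellate markers Lrat, Reln, Des and Pdgfrb was called either (adjusted p = 0.0526, 0.0935, 0.640 and 0.368). Hepatocyte and endothelial sums overlapped. In the plasma cell list 2 of 4 defining markers, Tnfrsf17 and Igkc, were above background on 0 treated arrays. Pancreatic acinar and adipocyte markers were at the background in both groups apart from Ctrb1 and Cfd, and mesothelial markers were above background on 0 treated arrays. The plot of list levels by array shows that MCD replicate 2 was the lowest untreated liver for Kupffer and neutrophil genes and M+Fc-GLP-1 replicate 3 the lowest treated liver for Kupffer genes.

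**Figure D3:**
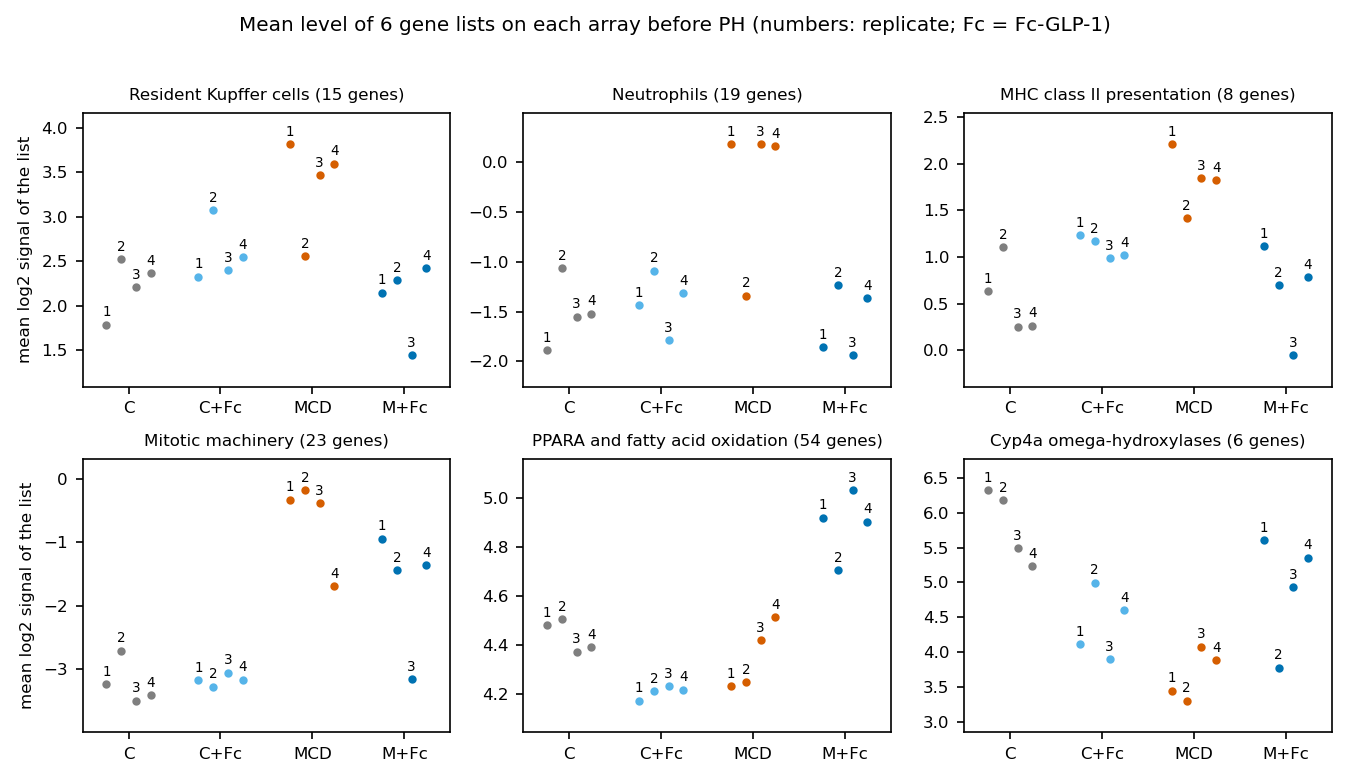
Mean log2 level (relative to each array's 75th percentile) of 6 gene lists on every array before PH, by group, with each array's replicate number beside its point. The Kupffer, neutrophil and MHC class II lists average lower in M+Fc-GLP-1 and the PPARA and Cyp4a lists higher against MCD, whose replicate 2, at 2.56 in the Kupffer list and -1.34 in the neutrophil list, is the lowest of its group in both.

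Among genes of fatty acid oxidation and PPARA 9 of 54 rose and 1 fell, with a median of 0.57, against 4.42% higher and 2.78% lower of all genes. Differences were above 0 for 45 of the 54, and 21 lay higher without overlap between the groups, against 10.2% of all genes. Other hepatocyte lists had medians above that of all genes as well: hepatocyte identity at 0.39 with 1 of 17 called higher, amino acid breakdown at 0.40 with 3 of 35 and periportal genes at 0.39 with 2 of 12. The mean level of hepatocyte identity genes was 8.57 to 8.86 on the MCD arrays and 9.0 to 9.32 on the treated ones, without overlap, and its part in the oxidation genes was not tested. By role, 2 of 5 transcriptional regulators, 4 of 13 genes of uptake and activation, 1 of 16 of mitochondrial oxidation, 2 of 12 of peroxisomal oxidation and 0 of 8 of ketogenesis and fuel choice rose. Ppargc1a, the coactivator that drives mitochondrial and fasting genes, was at 1.46, 1.65, 1.65 and 2.30 in MCD and 3.36, 3.02, 4.46 and 2.91 in M+Fc-GLP-1 (difference 1.68, SE 0.36, adjusted p = 0.00737). All treated values lay above all untreated ones, with M+Fc-GLP-1 replicate 3 the highest. Pex11a, which divides peroxisomes, was at 5.55, 5.91, 6.09 and 6.54 and 7.66, 6.74, 7.90 and 7.60, again without overlap (difference 1.45, SE 0.29, adjusted p = 0.00395). Hadhb, a subunit of the mitochondrial trifunctional protein, and Slc27a5, which transports fatty acids and activates bile acids, rose by 1.07 and 1.08 (adjusted p = 0.0124 and 0.0199), Hadhb with overlapping groups.

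The 1 member that fell was Cd36, the fatty acid translocase that both hepatocytes and macrophages carry, at 2.04, 1.64, 2.57 and 2.41 in MCD and 0.43, 0.77, 0.47 and 0.75 in M+Fc-GLP-1 (difference -1.56, SE 0.40, adjusted p = 0.0186). Its difference on chow was -1.15 (adjusted p = 0.116) and the interaction was not called (adjusted p = 0.702). Pex11a was at -0.54 on chow and its interaction was called (adjusted p = 0.00692), whereas Ppargc1a was at 0.94 on chow without a called interaction (adjusted p = 0.397). The 9 rises became 2 without MCD replicate 1, 3 without MCD replicate 2 or M+Fc-GLP-1 replicate 3 and 5 without M+Fc-GLP-1 replicate 1 or 4, and 2 to 15 under the other alignments, where the list's median stayed 0.29 to 0.52 above that of all genes. Pex11a and Ppargc1a kept their calls in every alternative.

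Acyl-CoA thioesterases cut fatty acyl-CoA into free acid and coenzyme A, and the type I enzymes of mice are encoded by neighbouring genes on chromosome 12. Of 12 thioesterase genes 3 rose and 1 fell, and all 3 that rose belonged to this cluster, where 6 genes were tested. Acot5, a peroxisomal enzyme, was at -2.10, -2.27, -1.85 and -1.11 in MCD and 0.86, 0.21, 1.36 and 0.83 in M+Fc-GLP-1 (difference 2.65, SE 0.39, adjusted p = 0.000204). The highest MCD value lay more than 1 unit below the lowest treated value. Acot1, the cytosolic enzyme, was at 0.55, 1.10, 2.11 and 1.51 and 5.18, 2.28, 4.18 and 2.78 (difference 2.29, SE 0.55, adjusted p = 0.0124), and Acot3, a peroxisomal one, at 2.29, 1.91, 3.33 and 3.64 and 5.64, 4.44, 6.18 and 5.13 (difference 2.56, SE 0.70, adjusted p = 0.0255). M+Fc-GLP-1 replicate 2 was the lowest treated liver for all 3 genes, and the groups did not overlap in any of them. The neighbours Acot2, Acot4 and Acot6 were at 0.30, 0.71 and 0.07 and were not called (adjusted p = 0.794, 0.184 and 0.930). On chow Acot1, Acot3 and Acot5 were at -1.56, -0.41 and -1.01, with the interaction called for Acot1 and Acot5 (adjusted p = 0.00621 and 0.00105) and not for Acot3 (adjusted p = 0.0667).

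The levels in the untreated chow livers differed between the 3 genes: Acot1 averaged 4.29 in C, 1.32 in MCD and 3.61 in M+Fc-GLP-1, Acot3 averaged -0.24, 2.79 and 5.35, and Acot5 averaged -1.60, -1.83 and 0.81. Since the 6 genes are close copies, their probes can share signal, and a second Acot5 probe gave -0.16 where the brightest gave 2.65, while the 2 Acot3 probes gave 2.53 and 2.56. Acot5 kept its call in every alternative, Acot1 lost it under 2 and Acot3 under 4 of 22, and the count of 3 became 1 without MCD replicate 1 or M+Fc-GLP-1 replicate 1. Acot11, a cytosolic thioesterase of a different type, fell by 1.27 (adjusted p = 0.00732).

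The promoters of the 3 cluster genes that rose are shown because they moved together and lie within 82 kilobases of each other with those of Acot2 and Acot4. Each is 300 bases from RefSeq on build GRCm38.p6, 250 bases before the start of the gene and 50 after it, on the plus strand, with capitals marking any copy of the nuclear receptor half-site AGGTCA on either strand. The first lies at chr12:84009252-84009551, the second at chr12:84051894-84052193 and the third at chr12:84069074-84069373.
Acot1: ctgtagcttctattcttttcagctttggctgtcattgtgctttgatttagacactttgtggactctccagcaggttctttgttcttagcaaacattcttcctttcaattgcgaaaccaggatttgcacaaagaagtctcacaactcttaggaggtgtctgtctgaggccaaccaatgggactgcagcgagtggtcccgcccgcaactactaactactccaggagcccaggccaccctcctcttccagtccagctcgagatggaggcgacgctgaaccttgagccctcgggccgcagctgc
Acot3: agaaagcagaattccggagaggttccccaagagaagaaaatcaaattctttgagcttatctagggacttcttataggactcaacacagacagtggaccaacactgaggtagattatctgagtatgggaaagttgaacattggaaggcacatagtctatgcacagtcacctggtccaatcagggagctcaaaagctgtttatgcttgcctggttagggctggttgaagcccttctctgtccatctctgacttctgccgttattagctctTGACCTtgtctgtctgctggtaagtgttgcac
Acot5: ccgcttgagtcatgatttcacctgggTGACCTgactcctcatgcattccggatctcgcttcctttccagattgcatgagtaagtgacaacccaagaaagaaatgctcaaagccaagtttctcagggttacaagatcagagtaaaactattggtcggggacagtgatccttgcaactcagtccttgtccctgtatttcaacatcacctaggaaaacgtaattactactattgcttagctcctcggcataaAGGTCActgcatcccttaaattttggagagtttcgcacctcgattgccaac
The half-site was found 0 times in the Acot1 window, 1 time in that of Acot3, 18 bases past the start on the other strand, and 2 times in that of Acot5, starting 224 bases before the start on the other strand and 1 base before it on the printed strand. It occurred in 16.3% of the 32851 promoters of the same length, on either strand. A direct repeat of the half-site with 1 base between, AGGTCANAGGTCA, the arrangement PPARA is known to bind with its partner RXR, was in none of the 3 windows and in 0.0396% of all promoters, and the E-box CACGTG was in none of the 3 and in 7.15% of all. These are matches of letters in a short window and are not evidence of binding or of its absence.

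Cyp4a enzymes hydroxylate the end of fatty acids and are classical PPARA targets, and 1 of 6 rose, with a median of 1.81. Cyp4a10 was at 5.43, 5.07, 5.99 and 5.73 in MCD and 8.69, 6.69, 7.74 and 7.64 in M+Fc-GLP-1, without overlap (difference 2.14, SE 0.64, adjusted p = 0.0407), a call lost under 8 of 22 alternatives. Cyp4a31 and Cyp4a32, near-identical relatives, were at 1.85 and 1.82 and missed the threshold (adjusted p = 0.0627 and 0.0925). On chow the same 3 genes were at -1.08, -1.55 and -1.96, and their interactions were called (adjusted p = 0.0347, 0.0226 and 0.0204).

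Genes of the lipid droplet surface and of lipolysis held 4 rises and 0 falls among 20, with a median of 0.37. Hsd17b11, a droplet-bound steroid dehydrogenase, was at 3.74, 3.89, 4.17 and 4.78 in MCD and 6.36, 5.0, 5.86 and 5.69 in M+Fc-GLP-1 (difference 1.58, SE 0.35, adjusted p = 0.00823), with no overlap. Mgll, which releases the last fatty acid from monoacylglycerol, rose by 2.04 (adjusted p = 0.0137), although its 4 probes ranged from 0.21 to 2.04. The droplet coat proteins Plin4 and Plin5 rose by 2.05 and 1.05 (adjusted p = 0.0202 and 0.0184), and the Plin4 groups overlapped, with M+Fc-GLP-1 replicate 2 below MCD replicate 4. The count of 4 became 1 without MCD replicate 3 and 2 without MCD replicate 1 or M+Fc-GLP-1 replicate 3, and under a normexp correction aligned at the 75th percentile the list's median was 0.02 below that of all genes.

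Lipogenesis and triglyceride synthesis showed both directions, with 2 rises and 3 falls among 30 genes and a median of 0.02. Mogat2, which adds a fatty acid to monoacylglycerol, was at 2.58, 2.82, 3.27 and 2.59 in MCD and -1.06, 0.04, -0.95 and -0.08 in M+Fc-GLP-1 (difference -3.33, SE 0.52, adjusted p = 0.000404). The gap between the lowest MCD and the highest treated value exceeded 2 units, and Mogat2 averaged -2.57 in the untreated chow livers. Fasn, the fatty acid synthase, and the elongase Elovl6 fell by 1.44 and 1.55 (adjusted p = 0.0442 and 0.0316) with overlapping groups. Lpin1, a phosphatidate phosphatase that also acts as a coactivator with PPARA, rose by 1.75 and the elongase Elovl5 by 1.06 (adjusted p = 0.00476 and 0.025). The 3 falls became 1 without MCD replicate 1, 2 or 3 or M+Fc-GLP-1 replicate 1 or 4, and 1 when only the arrays compared or only the 16 arrays before PH entered the fit. Mogat2 and Lpin1 kept their calls in every alternative.

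Cholesterol synthesis and uptake had 0 of 27 genes called by limma, with a median of -0.39 and 23 differences below 0. At an unadjusted p under 0.05, 3 were lower and 0 higher, against 1892 lower and 3210 higher of all 21228 genes. On chow the list's median was 0.71, and the interaction was called for 10 of the 27, against 6.11% of all genes. The count of 10 was not taken under the other alignments, where interactions over all genes numbered 342 to 2571. Msmo1 and Lss, enzymes of the late pathway, were at -1.38 and -1.08 on the deficient diet and at 1.38 and 1.26 on chow (interaction adjusted p = 0.0331 and 0.0351). Among lipoprotein genes 1 of 21 rose, Apoa5, which promotes the clearance of triglyceride (1.46, SE 0.33, adjusted p = 0.00887).

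The largest changes included genes whose level in mouse liver differs by sex and follows the pattern of growth hormone. Cux2, a transcription factor with higher levels in female liver, was at -2.08, -4.04, -1.30 and -2.29 in MCD and 2.20, 0.79, 0.87 and 2.38 in M+Fc-GLP-1 (difference 3.99, SE 0.47, adjusted p = 1.58e-05). Cyp3a44, a female-biased cytochrome P450, went the opposite way, at 4.69, 3.93, 5.44 and 4.73 and -0.20, -2.59, -0.04 and -0.38 (difference -5.50, SE 0.58, adjusted p = 2.89e-06), with 3 of 4 treated arrays above background. In neither gene did the groups come near to overlapping. Side by side with the chow livers, Cyp3a44 was above background on 0 arrays of C and of C+Fc-GLP-1, so its level there has only an upper limit, and averaged 4.70 in MCD and -0.80 in M+Fc-GLP-1. Cux2 averaged -4.24 in C, -3.73 in C+Fc-GLP-1, -2.43 in MCD and 1.56 in M+Fc-GLP-1, and a second probe for it gave a difference of 2.88. Among 18 female-biased genes 4 rose and 2 fell. The other rises were Fmo2, a flavin monooxygenase, at 1.16, 1.70, 0.99 and 1.89 and 4.47, 2.91, 3.70 and 3.68 (difference 2.25, adjusted p = 0.00597), Cyp17a1, a steroid hydroxylase (1.81, adjusted p = 0.00323), and Acot3, which is described above with the thioesterases. Cyp3a41b, a close copy of Cyp3a44 whose probe may share its signal, fell by 1.44 (adjusted p = 0.0123) and by 2.0 on chow (adjusted p = 0.00298), with no called interaction (adjusted p = 0.509). Among 20 male-biased genes 1 rose, Cyp2u1 (1.55, adjusted p = 0.00598), whose 3 probes ranged from -0.25 to 1.55, and 1 fell, the acetyltransferase Nat8f5 (-2.57, adjusted p = 0.0391). Cux2, Cyp3a44, Fmo2 and Cyp17a1 kept their calls in every alternative.

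Among other drug and bile acid genes, Cyp2c37 and Cyp2c38, which oxidise arachidonic acid and drugs, rose by 1.59 and 1.51, and Cyp2c55 fell by 1.87 (adjusted p = 0.0248, 0.0205 and 0.000768). A second Cyp2c37 probe was at 0.54. The family is close in sequence, so shared signal between its probes is possible. Cyp39a1, an oxysterol hydroxylase of bile acid synthesis, rose on both diets, by 1.71 on the deficient diet and 1.47 on chow (adjusted p = 0.00119 and 0.0107, interaction adjusted p = 0.769). Gpbar1, the membrane receptor for bile acids, rose by 1.10 (adjusted p = 0.00426), and the bile acid and organic anion exporter Abcc4 fell by 1.43 (adjusted p = 0.0324).

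Genes of the hormone axes held few calls. Glp1r, the receptor for GLP-1, was well above background on 4 MCD arrays and 1 treated array, at -4.78, -4.06, -4.42 and -3.56 in MCD and -3.52, -3.63, -3.48 and -3.12 in M+Fc-GLP-1, and was not called (0.77, adjusted p = 0.375). Fgf21, the fasting hormone, was at 5.40, 4.51, 4.80 and 3.17 and 3.56, 4.50, 3.70 and 3.45, overlapping groups with no call (-0.67, SE 0.53, adjusted p = 0.471). Fgf1, a growth factor related to it, rose by 1.78 and the receptor Fgfr3 fell by 1.44 (adjusted p = 0.00117 and 0.0127), but a second Fgfr3 probe was at -0.0078. Igf1, the main growth factor made under growth hormone, and the binding protein Igfbp2 rose by 0.85 and 1.21 (adjusted p = 0.0281 and 0.0305), calls lost under 7 and 10 of 22 alternatives. Dpp4, the protease that cleaves GLP-1, was at 0.91 and was not called (adjusted p = 0.146).

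Acute phase proteins, which hepatocytes secrete under interleukin 6, changed in both directions, with 5 of 25 lower, 2 higher and a median of 0.02 that fell below 0 under all 5 other alignments. Saa1 and Saa2, serum amyloid A forms of near-identical sequence, fell by 2.15 and 2.30 (adjusted p = 0.0366 and 0.0435) and orosomucoid Orm1 by 1.23 (adjusted p = 0.0332). Saa1 was at 5.85, 4.81, 6.36 and 5.42 in MCD and 3.51, 4.42, 2.76 and 3.14 in M+Fc-GLP-1, without overlap. Fgb, the fibrinogen beta chain, rose by 0.71 (adjusted p = 0.031), but was at -0.38 after a normexp correction with quantile normalization and at -0.37 in the authors' normalized values. The 5 falls became 1 without MCD replicate 1, 3 or 4 or M+Fc-GLP-1 replicate 1 and 2 without M+Fc-GLP-1 replicate 3 or 4.

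In the endoplasmic reticulum and integrated stress response 3 of 37 fell, all of the ATF4 arm. Ddit3, the stress factor CHOP, fell by 1.68 (adjusted p = 0.00839), and Asns, asparagine synthetase, was at 4.78, 4.74, 5.32 and 5.45 in MCD and 3.03, 3.76, 3.31 and 3.06 in M+Fc-GLP-1 (difference -1.78, SE 0.44, adjusted p = 0.0145), without overlap. Trib3, a pseudokinase induced by CHOP, fell by 1.75 (adjusted p = 0.0462) with overlapping groups. Mthfd2, a mitochondrial folate enzyme, fell by 2.11 (adjusted p = 0.0117), and 1 of 4 treated arrays measured it well above background. Among 36 antioxidant genes 5 fell and 0 rose (median -0.36), among them the glutathione transferase Gstm2 (-0.94, adjusted p = 0.0266), the extracellular superoxide dismutase Sod3 (-1.23, adjusted p = 0.0435) and thioredoxin reductase Txnrd1 (-0.90, adjusted p = 0.0478). The antioxidant count became 0 without MCD replicate 1, 1 without MCD replicate 4 or M+Fc-GLP-1 replicate 1 or 3 and 2 without MCD replicate 2 or 3 or M+Fc-GLP-1 replicate 4. In the methionine cycle Ahcy, which breaks down S-adenosylhomocysteine, and Cdo1, which oxidises cysteine, rose by 1.15 and 1.26 (adjusted p = 0.0131 and 0.0274).

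Of 21 collagen and processing genes 1 fell and 0 rose, with a median of -0.59. Col3a1, fibrillar collagen III, was at 2.32, 2.57, 2.71 and 2.66 in MCD and 1.11, 0.50, 0.20 and 0.47 in M+Fc-GLP-1 (difference -1.99, SE 0.45, adjusted p = 0.00919). The MCD values were close together and all treated values lay below them. Col1a1 was lower without overlap at -1.23 but was not called (adjusted p = 0.218), and the protease inhibitor Timp1 just missed the threshold (-2.60, adjusted p = 0.0536). All 11 collagens had differences below 0, against 8985 of all 21228 genes. Of the 11, 5 lay lower without overlap, against 6.1% of all genes, and 1 was called. Stellate cell and myofibroblast genes had 1 fall of 18, Ngfr (-1.01, adjusted p = 0.0454), while Acta2, Des, Tgfb1, Mmp2 and Fap were at -0.03, -0.22, -0.35, -0.86 and -0.14 with no call.

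For the mitotic machinery limma called 0 of 23 genes, although all 23 differences were below 0 and their median was -1.13. At an unadjusted p under 0.05, 8 were lower and 0 higher, against 1892 lower and 3210 higher of all 21228 genes. Mki67, a marker of dividing cells, was at 1.64, 1.60, 1.44 and 0.20 in MCD and 0.56, -0.06, -1.69 and -0.69 in M+Fc-GLP-1 (difference -1.69, SE 0.57, adjusted p = 0.0654). The groups overlapped, with MCD replicate 4 below M+Fc-GLP-1 replicate 1. Of the 23, 3 passed the filter through MCD alone, and under the other alignments 0 to 3 were lower. In DNA replication Mcm2, a helicase subunit, and Rfc3, a clamp loader subunit, fell by 1.62 and 1.33 (adjusted p = 0.0127 and 0.0273). Afp, the fetal albumin relative, fell by 1.39 (adjusted p = 0.0137).

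Other genes with the largest rises were Gpcpd1, which splits glycerophosphocholine, Zbtb16, a zinc finger factor, Hsd17b6, a steroid dehydrogenase, and Nlrp12, an inhibitory pattern receptor. Gpcpd1 was at -0.59, 0.62, -0.07 and 0.66 in MCD and 2.75, 2.17, 2.83 and 2.78 in M+Fc-GLP-1 (difference 2.48, SE 0.43, adjusted p = 0.00111), with M+Fc-GLP-1 replicate 2 the lowest treated value and still above every MCD value. Zbtb16 was at 0.64, 2.09, 0.84 and 2.06 and 4.61, 3.78, 3.13 and 3.78 (difference 2.42, adjusted p = 0.00246), Hsd17b6 rose by 2.30 (adjusted p = 0.0035) and Nlrp12 by 2.34 (adjusted p = 0.000473), and all 4 kept their calls in every alternative. Near background, Olfr48 and Meig1 were well above it on 0 MCD arrays and on 3 and 2 treated arrays, at least 3.6- and 1.67-fold higher (adjusted p = 0.00985 and 0.0175), and Hoxa7, Tnp1, Scn4b and Dnah6 rose from dim levels. Among the falls, Niban1, a stress-induced regulator of translation, was at 0.78, 0.25, 0.72 and 0.09 and -3.09, -2.62, -2.72 and -1.75, with 2 of 4 treated arrays above background (difference -3.0, adjusted p = 0.000204). Bhlha15, a transcription factor of secretory cells that plasma cells also carry, and the adenylate kinase Ak7 fell by 3.30 and 2.86 (adjusted p = 0.0134 and 0.00111). Vmn2r5 and Nrip2 were above background on 0 treated arrays and at least 12.6- and 5.91-fold lower (adjusted p = 8.69e-05 and 0.000206), and a second Nrip2 probe was not called (adjusted p = 0.345).

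Lists chosen as a reference lay near the median of all genes. Of 15 common reference genes limma called 0, with 1 higher and 0 lower at an unadjusted p under 0.05 and a median of 0.10, the same as that of all genes. Of 22 ribosomal protein genes it called 0, with 3 lower at an unadjusted p under 0.05 and a median of 0.13, and of 23 endothelial genes 0, with 4 higher and a median of 0.12. Hepatocyte identity genes had a median of 0.39 with 1 of 17 higher, the lectin receptor subunit Asgr2 (0.83, adjusted p = 0.0166), but this median turned to -0.05 after a normexp correction with quantile normalization. Relative to all genes under the 5 other alignments, the medians were -2.09 to -1.41 for MHC class II, -1.81 to -0.65 for neutrophils, -1.03 to -0.62 for chemokines, -0.82 to -0.58 for interferon-stimulated genes and -0.46 to -0.061 for T and NK cells. They were -1.23 to -0.68 for the mitotic machinery, -0.69 to -0.47 for collagens, -1.02 to -0.46 for antioxidant genes and -0.71 to -0.45 for the stress response, and 1.18 to 1.71 for Cyp4a and 0.30 to 0.54 for thioesterases. The hepatocyte identity, lipogenesis, lipid droplet, methionine cycle and endothelial lists changed side under at least 1 alignment. The plot of lists shows the members of 18 lists around that common median, with the Kupffer, neutrophil and class II lists to its left and the Cyp4a and fatty acid oxidation lists to its right.

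**Figure D4:**
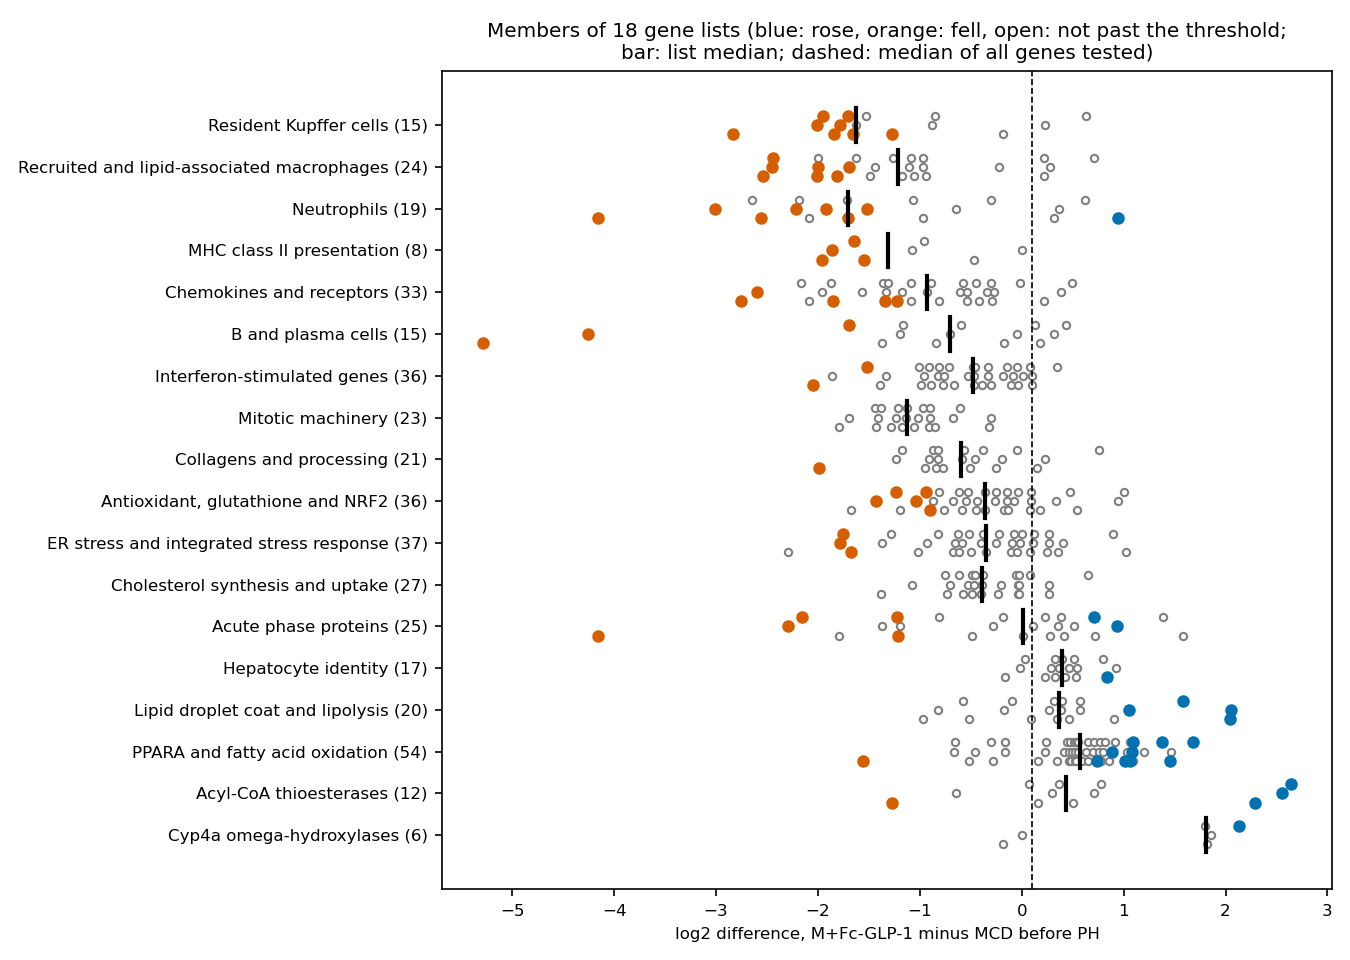
Log2 difference M+Fc-GLP-1 minus MCD (horizontal axis) for each tested member of 18 gene lists, with called members coloured, a bar at each list's median and a dashed line at the median of all genes, 0.10. The Kupffer list has its median at -1.62, the neutrophil list at -1.71 and the PPARA list at 0.57.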

How the data were processed

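Liver RNA of 32 samples was measured on 1-colour Agilent arrays, and the authors deposited the scanner output, whose processed signal is an intensity after the scanner software's own background and spatial correction, with a table of normalized values on a log2 scale per the file headers. The submitters' processing notes name limma, with no version, and the genome build behind the probes is not given in the sources used here. Each deposited intensity was put on the log2 scale, and the array's 75th percentile over non-control probes was subtracted. Spots of a probe were averaged, flagged outlier spots were left out, and 426 of 55681 probes had a missing value on some array. A probe was kept where some group of the 8 had it well above background on each of its 4 arrays (29302 probes), and the brightest probe stood for its gene (21228). Of these genes, 365 passed through MCD alone and 0 through M+Fc-GLP-1 alone, and 92 had a missing value on some of the 8 arrays. Of all probes, 27656 were named by RefSeq accession, 3401 by symbol, 321 by synonym, and 24303 kept the deposited name.

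A limma model (3.58.1, R 4.3.3) with 1 mean per group was fitted to all 32 arrays (24 residual degrees of freedom), and p-values were adjusted by Benjamini-Hochberg at 0.05. The fit was tested on simulated data. Genes that no array of a group measured above background got a bound in place of a fold. The number of arrays limits the precision. The members, gene lists and tests were chosen with earlier results of these data known. Genes were named as the 15 largest rises and falls without overlap and with an official symbol, the mRNAs the study measured, up to 5 members of each list by smallest p among those called or, where fewer than 2 passed, the 2 largest differences, and defining cell markers. The alternatives were other background corrections and alignments (including the authors' values), other filters, the mean over a gene's probes, fewer arrays in the fit, a replicate block, a variance trend and leaving out each array. Leaving out probes flagged on any array was added after the data were seen. Some genes that the counts include are not reported here by name.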

Additional observations from a re-analysis of the deposited data

Results flagged for a closer look

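In 14 of the 270 groups of 4 arrays checked for the 135 named genes that were called, 1 array stood apart from the other 3 by Dixon's test. Chance gives about 1 in 20 such groups. Among MCD arrays, replicate 2 stood apart in Vsig4 at 3.21, in Mzb1 at -1.90 and in Lpin1 at 4.10. MCD replicate 3 did so in Ahcy at 6.61, in C8a at 4.83 and in Prdx1 at 6.44, and MCD replicate 4 in Fasn at 2.16 and in Ccr7 at -0.36. Among treated arrays, M+Fc-GLP-1 replicate 2 stood apart in Cyp3a44 at -2.59, Gpcpd1 at 2.17, Plin4 at 3.47, Plin5 at 6.51 and Scn4b at -0.40, and replicate 1 in Fmo1 at 4.99.

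The response to Fc-GLP-1 differed between the diets, by the interaction term of the limma fit, in 78 of the 135 named genes that were called, against 6.11% of all genes tested. The 135 were called on 1 of the 2 differences that form the interaction, so that share is a description. In 8 of the 78 some group was above background on no array, so that their interaction has no size and is not given. Values, printed for 68 of the 78, are the log2 difference on the deficient diet minus that on chow.

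Among genes of resident and recruited macrophages, the interaction was -2.31 for C1qb, -2.23 for Cd5l, -2.39 for Clec4f, -2.01 for Csf1r, -3.08 for Folr2, -3.24 for Lyz1, -3.25 for Msr1, -3.42 for Tyrobp and -2.59 for Vsig4. For genes of neutrophils and acute phase proteins, the interaction was -2.37 for Fpr1, -5.65 for Lcn2, -2.51 for Ncf4, -4.43 for S100a8, -3.31 for S100a9, -3.60 for Saa1 and -3.70 for Saa2. In chemokines, cytokine signalling and interferon-stimulated genes, the interaction was -2.88 for Ccl24, -2.33 for Ifi27l2a, -3.42 for Il1b, -2.70 for Oasl1 and -1.25 for Tnfrsf1a, whereas it was above 0 at 1.81 for Il6ra. Among genes of antigen presentation, dendritic, plasma and T cells, the interaction was -3.39 for Cd83, -2.53 for H2-Aa, -2.33 for H2-Ab1, -2.50 for H2-DMb1, -3.99 for Iglv1 and -3.85 for Jchain. For genes of fatty acid oxidation, thioesterases and Cyp4a, the interaction was -1.45 for Acot11. It was above 0 at 3.85 for Acot1, 3.65 for Acot5, 3.21 for Cyp4a10, 1.41 for Hadhb and 1.99 for Pex11a. Among genes of lipid droplets, lipogenesis and lipoproteins, the interaction was -2.62 for Fasn and -3.84 for Mogat2, whereas it was above 0 at 1.84 for Hsd17b11 and 3.23 for Plin4. For sex-biased genes and drug metabolism, the interaction was -1.49 for Cyp2c55 and -4.22 for Nat8f5, whereas it was above 0 at 3.48 for Cux2, 2.42 for Fmo2 and 1.33 for Gpbar1. In genes of amino acids, methionine and stress responses, the interaction was -2.96 for Asns, -1.94 for Chka, -1.32 for Gstm2, -2.44 for Mthfd2, -1.67 for Psmc2, -1.92 for Sod3, -2.35 for Tnfrsf10b and -1.39 for Txnrd1, whereas it was above 0 at 1.39 for Aass, 1.30 for Ahcy and 2.00 for Sds. For genes of the hormone axes, clock, matrix and hepatocytes, the interaction was -2.49 for Afp, -1.74 for C8a and -2.41 for Col3a1. It was above 0 at 1.01 for Asgr2, 1.62 for Fgf1, 1.99 for Hlf and 1.80 for Igfbp2. For the remaining genes of the largest changes, it was 1.90 for Dnah6, 3.40 for Gpcpd1, 2.15 for Hoxa7 and 3.73 for Hsd17b6, with -3.78 for Niban1, 2.61 for Nlrp12 and 2.29 for Zbtb16 as well.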

How the results depend on the processing

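Of the 135 named genes that were called, 39 kept their call under all alternatives run (20 to 22 per gene), 96 lost it under at least 1 and 2 changed sign, and the causes were not tested. Asgr2 was -0.17 after normexp with quantile normalization, -0.013 after normexp aligned at the 75th percentile and -0.19 in the authors' normalized values, and Fgb was -0.38 and -0.37 under the first and last of these. The 1529 called genes became 2657 after normexp with quantile normalization, 6418 after normexp aligned at the 75th percentile and 6736 with no filter on dim probes, and the chow count of 428 became 2494, 1749 under the first 2 of these, 1045 with arrays aligned at the median, 2135 in the authors' normalized values and 48 with only the arrays compared in the fit. The 1297 interactions became 532 and 533 under the normexp settings, 2571 aligned at the median and 342 in the authors' normalized values. The gene lists' 130 calls became 196 and 295 under the normexp settings. Leaving out 1 array gave 550 (without MCD replicate 1) to 1728 (without M+Fc-GLP-1 replicate 2) called genes, and 958, 898, 873 and 695 without MCD replicate 2, MCD replicate 3, M+Fc-GLP-1 replicate 1 and M+Fc-GLP-1 replicate 3. It gave 193 (without C replicate 1) to 488 (without C replicate 3) on chow, 648 (without MCD replicate 1) to 1483 (without M+Fc-GLP-1 replicate 2) interactions and 52 (without MCD replicate 1) to 141 (without M+Fc-GLP-1 replicate 2) calls in lists. The difference in the share of probes above background was -11.9 to -6.86 percentage points with 1 array left out, and -9.11 (exact permutation p = 0.114) by the scanner's weaker flag for a positive signal. Without an MCD array the exact permutation p was 0.0571. Replicate numbers were shared by the groups but did not pair them: same-numbered arrays correlated at 0.125, 0.0388, 0.0544 and 0.131 in their deviations from the group means. With the replicate number as a block, 1542 genes were called (917 higher, 625 lower), 398 on chow, 1269 interactions and 127 in lists. Dim genes are limited by signal over background, since the lowest measurable level was -3.11 on M+Fc-GLP-1 replicate 2.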

Other observations

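Enzymes that break down amino acids held 3 rises and 0 falls among 35 genes, with a median of 0.40 against 0.10 for all genes and 4.42% of all genes higher. Arg1, the last enzyme of the urea cycle, was at 6.91, 6.69, 6.96 and 6.66 in MCD and 7.90, 8.17, 7.25 and 8.17 in M+Fc-GLP-1, so the groups did not overlap (difference 1.07, SE 0.28, adjusted p = 0.0197). Aass, which starts the breakdown of lysine, and Sds, serine dehydratase, rose by 1.16 and 1.06 (adjusted p = 0.0134 and 0.0316). With arrays aligned at the median 0 of the 35 were higher, and the count was 1 without MCD replicate 1 or M+Fc-GLP-1 replicate 1. Ppp1r3b, which targets glycogen for synthesis, rose by 1.17 (adjusted p = 0.0402), a call lost under 8 of 22 alternatives. Hlf, a clock output factor, rose by 1.12 (adjusted p = 0.0192) and was at -0.87 on chow (interaction adjusted p = 0.00689). The core clock gene Arntl was at -1.53 with no call on the deficient diet (adjusted p = 0.14), while it rose by 2.57 on chow (adjusted p = 0.0325, interaction adjusted p = 0.0111). Prox1, a factor of hepatocyte and lymphatic development, rose by 1.48 (adjusted p = 0.0152).

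In retinoid metabolism 3 of 21 genes fell and 0 rose. Cyp26a1, which degrades retinoic acid, was at 4.28, 3.26, 3.92 and 3.06 in MCD and 0.14, 2.67, 1.35 and 1.89 in M+Fc-GLP-1 without overlap (difference -2.12, SE 0.62, adjusted p = 0.0373), and Aldh1a7 fell by 1.02 (adjusted p = 0.0484). The 3 falls became 0 without MCD replicate 3 or M+Fc-GLP-1 replicate 3, 1 without MCD replicate 1 or M+Fc-GLP-1 replicate 1 and 5 without M+Fc-GLP-1 replicate 2. Among 26 p53 target and apoptosis genes 3 fell, Ccng1 (-1.14), the growth arrest gene Gadd45a (-1.90, overlapping groups) and the death receptor Tnfrsf10b (-1.54), with adjusted p of 0.0338, 0.0362 and 0.0468, and the count became 0 without MCD replicate 1 or 3 or M+Fc-GLP-1 replicate 1 and 1 without M+Fc-GLP-1 replicate 2. Rhbg, a pericentral ammonia transporter, fell by 1.35 (adjusted p = 0.0312). Pf4, a platelet chemokine, was at -0.81 on the deficient diet with no call (adjusted p = 0.206) and rose by 2.12 on chow (adjusted p = 0.00564, interaction adjusted p = 0.0041).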
